A study of Mus musculus with 8 samples.

Results

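The subject is 8 noncoding RNA genes of T cells, Malat1, Neat1, Gas5, Snhg1, Mir155hg, Mir17hg, Flicr and Gm26772, taken by gene name from a table of 54532 mouse genes. They were chosen with earlier results on the same libraries known, so their differences between the groups are given as descriptions, and the outcomes of the fit across all genes are counted but not used as support for them. RNA came from CD4+ T cells of the spleen of wild-type mice, which help other immune cells and bear CD4 on their surface. Dimethyl succinate, a membrane-permeable ester of the tricarboxylic acid cycle intermediate succinate, was given for 3 days in 4 libraries, and vehicle was given in 4 libraries. Both groups were wild type, and the labels name no other allele or agent for either of them. The labels call the control vehicle, and the authors' deposited table heads its columns DMSO, a common solvent. Nothing in the labels says that the libraries of a group came from separate animals or cultures, so the spread between them may be technical.

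A long noncoding RNA is a transcript that is not translated into a known protein. Some act as RNA themselves, often in the nucleus. Others are mainly hosts: the cell cuts a microRNA or a small nucleolar RNA out of the primary transcript. A microRNA guides the silencing complex to messenger RNAs through its seed, the bases near its 5′ end that pair with a target. Small nucleolar RNAs guide chemical modification of ribosomal RNA. In activated T cells, miR-155 and the miR-17-92 cluster are known to favour proliferation and effector function.

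Of the 8 genes, 5 are listed as long intergenic RNAs (Malat1, Neat1, Mir155hg, Mir17hg and Gm26772), 2 as processed transcripts (Gas5 and Snhg1) and 1, Flicr, as antisense. The counted RNA of the 2 microRNA hosts is the long transcript, not the mature microRNA. The mature sequences show what each host carries. They are from RefSeq (GRCm38.p6), 5′ to 3′, with the seed (bases 2 to 8) in capitals.
miR-155-5p: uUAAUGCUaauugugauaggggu
miR-17-5p: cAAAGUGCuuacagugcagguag
miR-20a-5p: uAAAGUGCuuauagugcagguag
miR-18a-5p: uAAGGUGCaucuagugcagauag
miR-19a-3p: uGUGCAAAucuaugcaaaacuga
miR-19b-3p: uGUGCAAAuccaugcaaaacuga
miR-92a-3p: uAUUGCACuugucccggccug

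miR-155-5p comes from Mir155hg, at chr16:84714143-84714165 on the plus strand, and its hairpin lies in an exon of 2 of 2 annotated host transcripts. The other 6 come from Mir17hg, between chr14:115043684 and chr14:115044496 on the plus strand, and share 4 seeds. miR-17-5p and miR-20a-5p have the same seed, as do miR-19a-3p and miR-19b-3p, while miR-18a-5p and miR-92a-3p have a seed of their own. The 6 hairpins of the cluster also lie in an exon.

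A messenger RNA that carries the reverse complement of a seed in its 3′ untranslated region is a candidate target. The sites below are from genes reported as targets of these microRNAs, read from GENCODE M21 transcripts of GRCm38, with the bases that pair with the seed in capitals. Inpp5d encodes the phosphatase SHIP1 (chromosome 1), Socs1 an inhibitor of cytokine signalling (chromosome 16), Bach1 a transcriptional repressor (chromosome 16) and Bcl2l11 the death-promoting protein BIM (chromosome 2). The first 3 sites pair with miR-155-5p, and the last with miR-17-5p and miR-20a-5p.
Inpp5d site: agatgtttttaaaaAGCATTAa
Socs1 site: tgccgctgtgccgcAGCATTAa
Bach1 site: tctatgaacagtttAGCATTAa
Bcl2l11 site: tctccccgactggaGCACTTTa

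Gas5 and Snhg1 belong to the genes whose transcripts can start with a run of pyrimidines, a feature they share with ribosomal protein genes and through which growth signals control translation. The 80 bases around their RefSeq starts (GRCm38.p6, plus strand) are shown for this reason, with the pyrimidine run at the first transcribed base in capitals. The Gas5 window is chr1:161035136-161035215, around the downstream of 2 RefSeq starts, and the Snhg1 window is chr19:8723457-8723536.
Gas5 start: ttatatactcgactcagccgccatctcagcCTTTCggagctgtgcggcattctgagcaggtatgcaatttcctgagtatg
Snhg1 start: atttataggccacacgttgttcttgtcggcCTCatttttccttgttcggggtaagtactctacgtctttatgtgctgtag

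The Gas5 run is 5 bases and the Snhg1 run is 3 bases long. A C at the start followed by at least 4 pyrimidines is found in 2.51% of 32851 promoters, among them the downstream Gas5 one. The Snhg1 start shown does not meet this criterion. The upstream RefSeq start of Gas5, which is not shown, does not begin with a pyrimidine. The promoters, each 300 bases long, were searched on both strands for 7 motifs: TGANTCA (AP-1), TGACGTCA (the cyclic AMP response element), CACGTG (E-box), TATAAA (a core promoter element), CCAAT (named by its letters), GGAAA (NFAT core) and a degenerate NF-kB-like motif. The downstream Gas5 promoter holds TGACGTCA, which reads the same on both strands and is found in 1.8% of promoters. It also holds the NF-kB-like motif at 1 place, as do 50.8% of promoters, and GGAAA at 2 places, as do 61.3%. In the upstream Gas5 promoter there is no TGACGTCA, but there are 8 matches to the NF-kB-like motif, some of which overlap, and 1 to GGAAA. The Snhg1 promoter holds TATAAA on the minus strand, as do 13.6% of promoters on either strand, and GGAAA at 1 place.

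Total counts ran from 13407295 to 16688854 per library. Transcripts of Cd4 were at 453 to 489 CPM (counts per 1000000) under dimethyl succinate, and at 317 to 455 under vehicle, while the summed markers of B cells, of natural killer cells and of monocytes and macrophages were at most 5.01 CPM in every library. Summed markers of dendritic cells reached 4.39 CPM and those of CD8 T cells 7.54 CPM. Markers of erythroid cells and platelets summed to 4.58 to 5.38 CPM under dimethyl succinate. Under vehicle they summed to 4.71 to 7.55 CPM in replicates 1 to 3 and 10.4 CPM in replicate 4. Pf4 alone was at 9.32 CPM in vehicle replicate 4, against 3.21 to 6.35 CPM in the other libraries. Hba-a1, Hbb-bt and Alas2 lay there within the range of the others. Vehicle replicate 4 stood apart from the other 7 libraries. Mitochondrial transcripts made up 0.252% of its counts, against 1.16% to 1.48% in the others, and over all genes it correlated with the rest at 0.981 on average, where each other library reached 0.989 to 0.991. Its summed regulatory T cell markers were at 1817 CPM, against 2514 to 2775 CPM in the other libraries. Most of this sum was Il2ra, at 1397 CPM against 1980 to 2183 CPM. Foxp3 was at 37.1 CPM against 70.6 to 85.7 CPM, while Ikzf2 hardly differed, at 94.6 CPM against 96.0 to 113 CPM. Values are therefore also given without vehicle replicate 4.

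Per length of transcript, the 8 genes covered a wide range. On the deposited FPKM scale (fragments per kilobase, scaled to the library), Malat1 averaged 185 ± 31.2 under dimethyl succinate and 169 ± 35.2 under vehicle (SD, n = 4 each), which made it the third of 4089 detected long noncoding genes. Mir155hg averaged 81.0 ± 9.91 FPKM under dimethyl succinate and 81.1 ± 4.67 FPKM under vehicle, and Gas5 averaged 74.1 ± 3.29 FPKM under dimethyl succinate and 84.5 ± 15.0 FPKM under vehicle. Snhg1 followed at 45.5 ± 1.102 FPKM under dimethyl succinate and 49.8 ± 3.78 FPKM under vehicle.

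Neat1 averaged 14.9 ± 0.783 FPKM under dimethyl succinate and 16.8 ± 2.93 FPKM under vehicle, and Mir17hg averaged 13.7 ± 0.671 FPKM under dimethyl succinate and 16.4 ± 3.28 FPKM under vehicle. Flicr was far lower, at 0.818 ± 0.110 FPKM under dimethyl succinate and 0.755 ± 0.350 FPKM under vehicle. Gm26772 was lowest, at 0.250 ± 0.0608 FPKM under dimethyl succinate and 0.0350 ± 0.00906 FPKM under vehicle. In this order of levels, Mir155hg and Gas5 overlapped over the 8 libraries, as did Neat1 and Mir17hg, and no other neighbours did. Among all 27185 genes with a count, Malat1 ranked 214th and Gm26772 ranked 17468th. The FPKM of Malat1, Neat1 and Snhg1 uses a listed length equal to the whole gene span of 6983, 20771 and 2969 bases. For Gas5 the listed 3760 bases exceed its longest annotated transcript, at 2556 bases. For Mir155hg the listed 1433 bases exceed its longest by less, at 1362 bases. A transcript shorter than the listed length has a higher level per length than is listed.

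Between the groups, the libraries were compared across all genes with edgeR's quasi-likelihood test and Benjamini-Hochberg adjustment. Of 13981 genes tested, 0 passed an adjusted p of 0.05 (0%), and 805 (5.76%) had an unadjusted p below 0.05. Of the 8 RNAs, 7 passed the low-count filter, 0 of these 7 passed the adjusted threshold, and 1, Mir17hg, had an unadjusted p below 0.05. The fitted difference was above 0 for 3 of the 7 and below 0 for 4. The groups did not overlap for 1 of the 7, Snhg1, against 4.82% of all genes tested, 2.5% higher and 2.32% lower under dimethyl succinate. Since the same contrast was known when the RNAs were chosen, nothing is read from these counts.

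**Figure D1:**
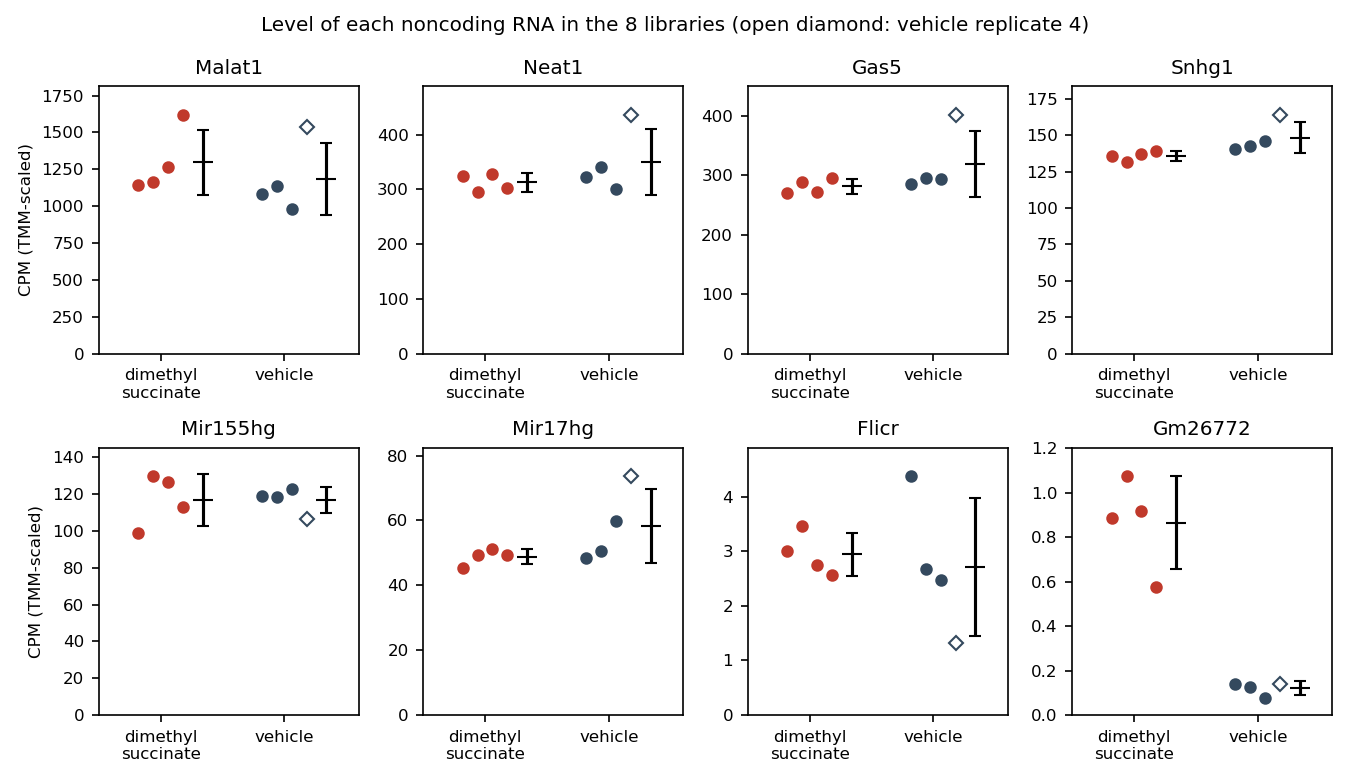
CPM (vertical axes, linear, from 0) of the 8 noncoding RNAs in each library, with dimethyl succinate in red and vehicle in dark blue. Bars are mean ± SD of 4 libraries, and the open diamond is vehicle replicate 4. The 4 libraries under dimethyl succinate lie between 131 and 140 CPM for Snhg1, below all vehicle libraries, and vehicle replicate 4 is the highest library for Neat1, Gas5, Snhg1 and Mir17hg.

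Malat1 is a long nuclear RNA of nuclear speckles, the bodies that store splicing factors. It had 1146, 1161, 1266 and 1620 CPM in the 4 libraries under dimethyl succinate, and 1080, 1136, 983 and 1536 CPM in the 4 vehicle libraries. The 2 highest libraries were replicate 4 of each group, and without vehicle replicate 4 all libraries under dimethyl succinate were above all vehicle libraries, which held for 4.99% of genes in that comparison. The fitted log2 fold change, dimethyl succinate over vehicle, was 0.13 ± 0.14 (SE), and 0.28 ± 0.14 without vehicle replicate 4. Without dimethyl succinate replicate 4 it was 0.011. In bulk RNA, more of a transcript per cell and more cells that hold it cannot be told apart.

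Neat1 is the architectural RNA of paraspeckles, nuclear bodies built on it. It had 325, 295, 328 and 302 CPM under dimethyl succinate, and 322, 340.4, 299.9 and 436 CPM under vehicle. The groups overlapped, and vehicle replicate 4 was the highest library. It had a log2 fold change of -0.16 ± 0.10 with all libraries, and -0.038 ± 0.052 without vehicle replicate 4.

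Malat1 and Neat1 lie 22036 bases apart on the minus strand of chromosome 19. Neat1 counts were 28.3%, 25.4%, 25.9% and 18.6% of Malat1 counts under dimethyl succinate, and 29.8%, 29.97%, 30.5% and 28.4% under vehicle. The ratio was lower in all 4 libraries under dimethyl succinate than in any vehicle library, but only narrowly. The closest values were 28.3% in dimethyl succinate replicate 1 and 28.4% in vehicle replicate 4. Means were 24.6 ± 4.16% under dimethyl succinate, where replicate 4 was lowest at 18.6%, and 29.7 ± 0.899% under vehicle (SD, n = 4 each). How often ratios of other genes separate in this way was not counted. The ratio was chosen after the values were seen. On the other side of Neat1, Frmd8 lies 4224 bases away.

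**Figure D2:**
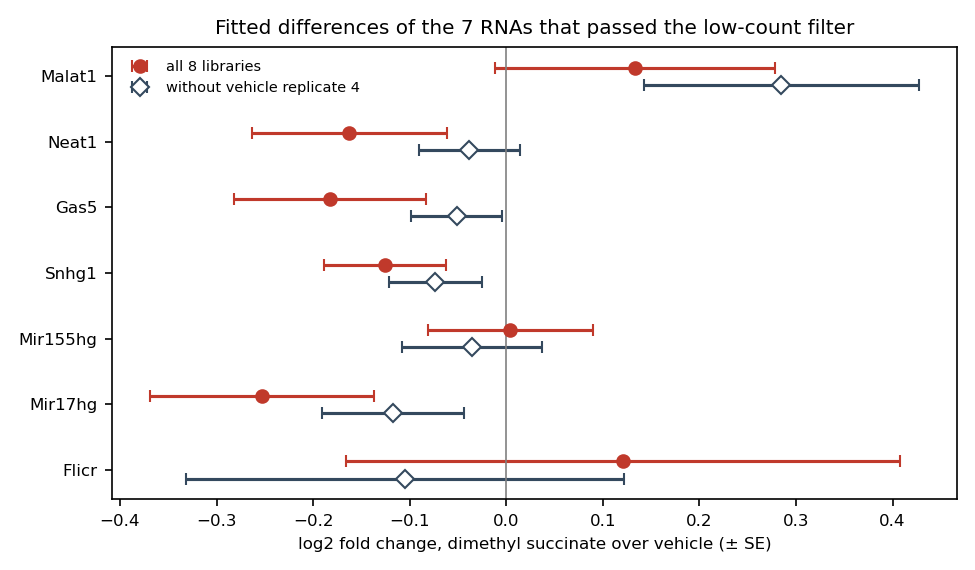
Fitted log2 fold change, dimethyl succinate over vehicle (horizontal axis, ± SE), of the 7 noncoding RNAs that passed the low-count filter. Red points use all 8 libraries, and open diamonds leave out vehicle replicate 4. Without that library Neat1, Gas5, Snhg1 and Mir17hg lie nearer to 0 and Malat1 lies farther from it.

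Gas5 is the host of small nucleolar RNAs that accumulates when growth stops, because translation arrest slows its decay. It had 269, 288, 272 and 295 CPM under dimethyl succinate, and 285, 295, 293 and 402 CPM under vehicle. The groups overlapped between 285 and 295 CPM, and vehicle replicate 4 was far above the rest. Its fitted log2 fold change was -0.18 ± 0.10, and -0.051 ± 0.048 without vehicle replicate 4. Its span overlaps the start of Zbtb37 on the opposite strand, with 0 shared exon bases.

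Snhg1 hosts another set of small nucleolar RNAs. It had 136, 131, 138 and 139.6 CPM under dimethyl succinate, and 141, 143, 146 and 164 CPM under vehicle. All 4 libraries under dimethyl succinate were lower than all 4 vehicle libraries, by a small margin. The log2 fold change was -0.13 ± 0.063, and -0.073 ± 0.049 without vehicle replicate 4, when the groups still did not overlap, as for 4.64% of genes that were lower in that comparison.

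Slc3a2, which encodes the amino acid transporter chain CD98, begins 106 bases from Snhg1 and is read in the opposite direction. Snhg1 counts were 31.7 ± 1.89% of Slc3a2 counts under dimethyl succinate and 33.8 ± 1.03% under vehicle (SD, n = 4 each), and the 2 groups overlapped. Gas5 counts were 207 ± 10.4% of Snhg1 counts under dimethyl succinate and 214 ± 20.7% under vehicle. The 10 small nucleolar RNAs listed inside Gas5 and the 8 inside Snhg1 had 0 counts in all libraries. All of them lie wholly within annotated exons of their hosts. How reads from shared bases were assigned is not given, so the 0 counts do not show that they were absent.

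The small nucleolar RNA hosts were also read as a list. Of 15 tested, Gas5 and Snhg1 included, 0 passed the adjusted threshold, 14 had a fitted difference below 0 and 1 above, with a median log2 fold change of -0.18. Of all genes tested, 49.6% were above 0, and their median was -0.0011. Without vehicle replicate 4, 4 of the 15 were above 0 and the median was -0.051. That library was the highest of the 8 for 12 of the 15 hosts (80%), against 29% of all genes tested, and its part in the result was not tested.

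Snhg17 had 103, 100.1, 97.8 and 98.5 CPM under dimethyl succinate, and 115, 109, 103 and 124 CPM under vehicle, with a log2 fold change of -0.18 ± 0.067. Its groups overlapped at 103 CPM. Snhg5 averaged 32.9 ± 1.85 CPM under dimethyl succinate and 39.5 ± 7.77 CPM under vehicle, and Snhg8 averaged 23.2 ± 4.11 CPM under dimethyl succinate and 27.4 ± 5.05 CPM under vehicle. Snhg10 was near the detection limit, at 0.596 ± 0.241 CPM under dimethyl succinate and 0.901 ± 0.0890 CPM under vehicle. None of these 4 passed the test, each at an adjusted p of 0.802 (edgeR's quasi-likelihood test, Benjamini-Hochberg). The summed level of the list was 1037, 1096, 1058 and 1176 CPM under dimethyl succinate, and 1082, 1178, 1093 and 1559 CPM under vehicle.

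**Figure D3:**
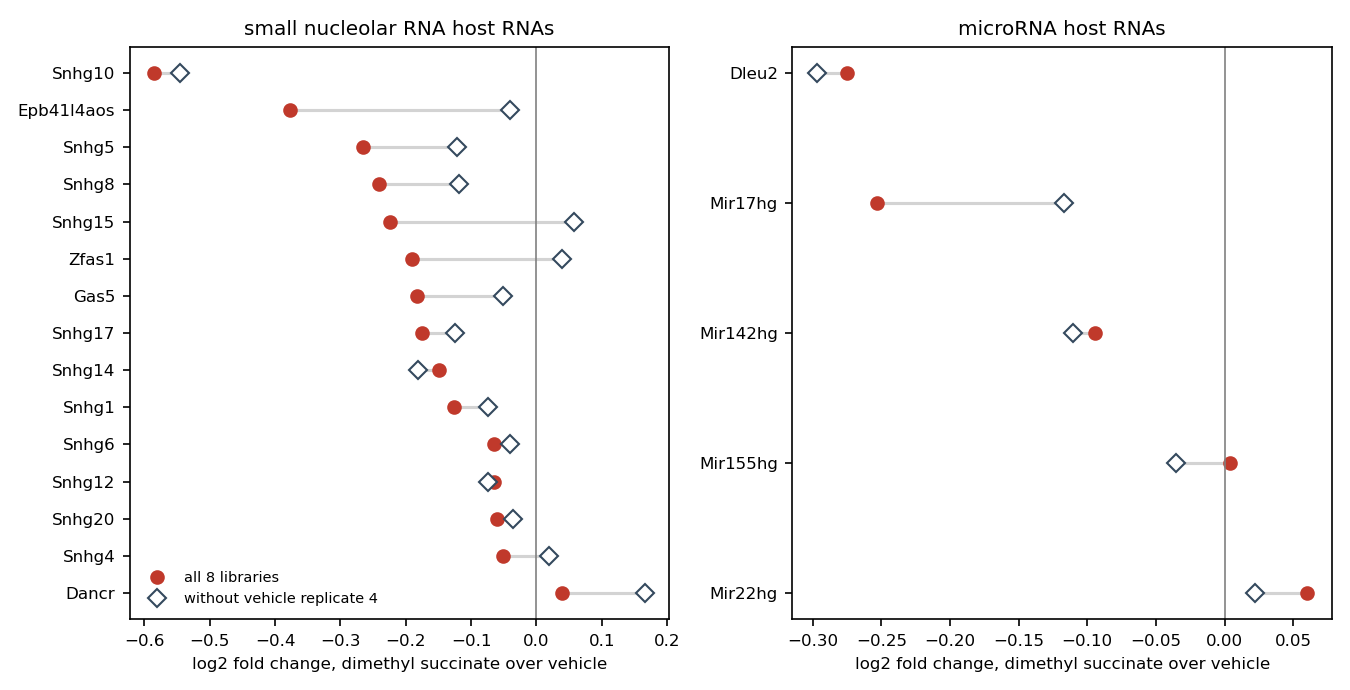
Log2 fold change, dimethyl succinate over vehicle (horizontal axes), of each tested small nucleolar RNA host and each tested microRNA host. Red points use all 8 libraries and open diamonds leave out vehicle replicate 4. With all libraries 14 of 15 small nucleolar RNA hosts and 3 of 5 microRNA hosts lie below 0.

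Nonsense-mediated decay is the route that removes spliced Gas5 and many other host RNAs after they meet a ribosome. Of its 10 factors tested, 5 were above 0 and 5 below, 0 passed the test and the median log2 fold change was 0.0017, or 0.0040 without vehicle replicate 4. Upf3a, a cofactor of the helicase UPF1, averaged 43.6 ± 2.30 CPM under dimethyl succinate and 51.0 ± 10.1 CPM under vehicle. Vehicle replicate 4 was its highest library, at 65.7 CPM.

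Mir155hg, also called Bic, is the precursor of miR-155 and is induced by antigen receptor signalling. It had 98.7, 129.7, 126 and 113 CPM under dimethyl succinate, and 119, 119, 123 and 107 CPM under vehicle. Dimethyl succinate held both the lowest and the highest library, and the vehicle values lay between them. The log2 fold change was 0.0041 ± 0.085, with a 95% interval from -0.18 to 0.19. Without vehicle replicate 4 it was -0.035 ± 0.073.

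Mir17hg is the precursor of the miR-17-92 cluster and a known target of the transcription factor MYC. It had 45.5, 49.3, 51.1 and 49.3 CPM under dimethyl succinate, and 48.6, 50.6, 60.0 and 73.7 CPM under vehicle. The groups overlapped between 48.6 and 51.1 CPM, and vehicle replicates 3 and 4 stood above all others. Mir17hg had a log2 fold change of -0.25 ± 0.12, and -0.12 ± 0.074 without vehicle replicate 4.

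Myc itself averaged 376 ± 9.01 CPM under dimethyl succinate and 363 ± 54.4 CPM under vehicle, where replicate 4 was lowest at 286 CPM. Mir17hg counts were 11.9%, 12.98%, 14.1% and 13.02% of Myc counts under dimethyl succinate, and 12.7%, 13.6%, 14.5% and 25.8% under vehicle. The ratio overlapped between the groups in all but vehicle replicate 4, which was low in Myc and high in Mir17hg.

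Of 11 microRNA hosts listed, 5 were tested, Mir155hg and Mir17hg included, and 0 passed the adjusted threshold, with 2 above 0, 3 below 0 and a median of -0.094. With vehicle replicate 4 left out, 1 was above 0 and the median was -0.11. Dleu2, host of miR-15a and miR-16-1, had 9.29, 9.31, 10.2 and 10.03 CPM under dimethyl succinate, and 12.99, 11.3, 11.6 and 11.2 CPM under vehicle. All its libraries under dimethyl succinate were lower than all vehicle libraries, as for 2.32% of all genes tested. The log2 fold change was -0.28 ± 0.11 with an adjusted p of 0.802 (edgeR's quasi-likelihood test, Benjamini-Hochberg), and -0.30 without that library. Mir142hg averaged 31.8 ± 6.68 CPM under dimethyl succinate and 33.9 ± 3.29 CPM under vehicle, and Mir22hg averaged 20.7 ± 0.656 CPM under dimethyl succinate and 19.8 ± 1.99 CPM under vehicle.

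The machinery that makes microRNAs did not pass the test in any of its 13 genes, with 10 above 0 and 3 below and a median log2 fold change of 0.067. Without vehicle replicate 4 the median was 0.0012. Xpo5, the nuclear export receptor for the hairpins, had 141, 145, 145 and 143 CPM under dimethyl succinate, and 133, 129, 137 and 119 CPM under vehicle. Its groups did not overlap and were higher under dimethyl succinate, as for 2.5% of all genes tested. Its log2 fold change was 0.15 ± 0.059, with an adjusted p of 0.802 (edgeR's quasi-likelihood test, Benjamini-Hochberg). Drosha, the nuclease that cuts the hairpin from the host, averaged 91.7 ± 3.38 CPM under dimethyl succinate and 86.2 ± 4.01 CPM under vehicle.

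Reported targets of the 2 hosts' microRNAs were read beside them. Of 15 miR-155 targets, 12 hold the site AGCATTA in their longest 3′ untranslated region, against 9.9% of 11560 genes. Of the 15, 0 passed the test, 7 were above 0 and 8 below, and the median log2 fold change was -0.020. Without vehicle replicate 4, 4 were above 0 and the median was -0.040. Over all 1145 tested genes with the site, the median was -0.0066, against -0.0014 over all genes with an annotated region. Without that library these medians were -0.018 and 0.0013.

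Fosl2, a subunit of the transcription factor AP-1, had 136, 119.6, 114 and 119 CPM under dimethyl succinate, and 102, 107, 103 and 94.96 CPM under vehicle. All its libraries under dimethyl succinate were above all vehicle libraries, as for 2.5% of all genes tested. It was named for having the smallest p of its list. Its log2 fold change of 0.26 ± 0.069 had an adjusted p of 0.709 (edgeR's quasi-likelihood test, Benjamini-Hochberg). Socs1 went the other way, averaging 182 ± 4.28 CPM under dimethyl succinate and 195 ± 7.35 CPM under vehicle. All its libraries under dimethyl succinate, at 178 to 186 CPM, were below all vehicle libraries, at 188 to 203 CPM, as for 2.32% of all genes tested. Inpp5d averaged 115 ± 3.88 CPM under dimethyl succinate and 112 ± 10.1 CPM under vehicle.

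Of 13 miR-17-92 targets, all 13 hold a site for at least 1 of the cluster's seeds. The site GCACTTT of miR-17-5p and miR-20a-5p is in 11 of them and in 15.3% of 11560 genes. None of the 13 passed the test, 7 were above 0 and 6 below, and the median log2 fold change was 0.023. Leaving out vehicle replicate 4, 6 were above 0 and the median was -0.0030, on the other side of 0. Bcl2l11 averaged 57.4 ± 2.89 CPM under dimethyl succinate and 53.2 ± 7.75 CPM under vehicle. E2f1, a cell cycle transcription factor, averaged 19.5 ± 1.73 CPM under dimethyl succinate and 23.0 ± 1.14 CPM under vehicle, and Tnfaip3, an inhibitor of NF-kB signalling, averaged 291 ± 3.56 CPM under dimethyl succinate and 318 ± 8.83 CPM under vehicle.

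Flicr is a noncoding RNA of regulatory T cells, known in mice to reduce expression of its neighbour Foxp3, the factor that defines those cells. It had 44, 58, 45 and 40 counts under dimethyl succinate (3.01, 3.46, 2.75 and 2.56 CPM), and 62, 42, 33 and 19 counts under vehicle (4.38, 2.67, 2.47 and 1.32 CPM). Vehicle held both the highest and the lowest library. Flicr had a log2 fold change of 0.12 ± 0.29, and -0.10 ± 0.23 without vehicle replicate 4.

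Flicr shares 853 of its exon bases (23.8%) with Foxp3 on the same strand, and 310 (8.7%) with Ppp1r3f on the opposite strand. How reads from shared bases were assigned is not given in the sources used here, so its counts are uncertain to that extent. Foxp3 had 85.7, 75.4, 78.4 and 77.6 CPM under dimethyl succinate, and 77.1, 70.6, 72.8 and 37.1 CPM under vehicle. Flicr counts were 3.51%, 4.59%, 3.51% and 3.29% of Foxp3 counts under dimethyl succinate, and 5.67%, 3.79%, 3.39% and 3.56% under vehicle. Vehicle replicate 4 was the lowest library for both genes, and its ratio lay within the range of the others.

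Gm26772 is a long intergenic RNA known here by its identifier only. It lies at chr14:25548390-25554369 on the minus strand, within the span of Zmiz1, a transcriptional coactivator gene on the plus strand, and shares 0 exon bases with it. It had 13, 18, 15 and 9 counts under dimethyl succinate, and 2, 2, 1 and 2 counts under vehicle. All 4 libraries under dimethyl succinate were above all 4 vehicle libraries, at very low levels. Such a separation was seen for 2.5% of the 13981 genes tested, which do not include Gm26772. As the gene was chosen with this contrast known, nothing is read from its separation.

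The summed Gm26772 counts were 55 (41.4 to 71.6) under dimethyl succinate and 7 (2.81 to 14.4) under vehicle, with exact 95% Poisson intervals that cover counting error only. The ratio of the summed counts, each divided by its libraries' totals, was 7.22, with an interval from 3.28 to 18.8. The low-count filter asked for about 0.658 CPM in 4 libraries. Dimethyl succinate replicate 4, at 0.575 CPM, fell below it, so the gene was not among the 13981 tested. In the authors' deposited table its log2 fold change was 2.83. Its adjusted p there was above that of Mir17hg although its unadjusted p was smaller. That adjusted p may therefore stand for a missing value and is not read. DESeq2 on all 8 libraries gave an adjusted p of 0.263 and did not call it. With no low-count filter, edgeR's quasi-likelihood test gave it an adjusted p of 0.0484, in a fit where 6 of 27185 genes passed. The gene was picked with this contrast known, so that call adds no support.

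Without vehicle replicate 4 the filter kept Gm26772, and the log2 fold change was 2.82 ± 0.58. In that fit, 28 of 14232 genes (0.197%) passed the adjusted threshold, and Gm26772 was the 1 of the 8 RNAs among them. It was picked with that call known, so the call adds no support. Zmiz1 had 158, 159, 153 and 144 CPM under dimethyl succinate, and 158, 136, 145 and 71.9 CPM under vehicle. As a share of Zmiz1 counts, Gm26772 counts were 0.562%, 0.677%, 0.601% and 0.398% under dimethyl succinate, and 0.0893%, 0.0936%, 0.0515% and 0.194% under vehicle. Whether strand was used in counting is not given in the sources used here, and without it reads of this gene and of unspliced Zmiz1 RNA cannot be told apart.

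**Figure D4:**
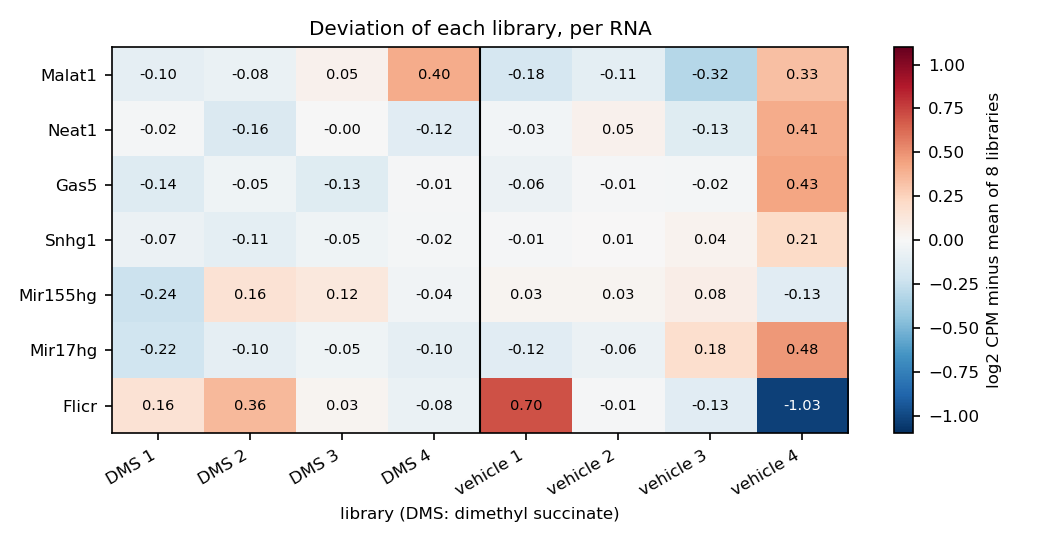
Log2 CPM of 7 noncoding RNAs in each library (columns, DMS for dimethyl succinate), minus the mean of the 8 libraries for that RNA (colour and printed value). Vehicle replicate 4 stands at 0.41 for Neat1, 0.43 for Gas5 and 0.48 for Mir17hg, and at -1.03 for Flicr.

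Across libraries, the 8 RNAs did not vary as 1 group. Vehicle replicate 4 was the highest library for 4 of them and the lowest for 1, Flicr. Gas5, Snhg1 and Mir17hg varied together over the 8 libraries, with a Pearson r of 0.907 between Gas5 and Snhg1 and of 0.921 between Snhg1 and Mir17hg. Without vehicle replicate 4 these were 0.482 and 0.676. The libraries share their scaling and 2 treatments, and these correlations are descriptions.

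The genes most like each RNA were taken as those with the highest Pearson r of log2 CPM over the 8 libraries, among 8915 candidates that averaged 10 CPM or more. For Malat1 this was Stk39, which encodes the kinase SPAK (r = 0.999, and 0.998 without vehicle replicate 4). For Gas5 it was Timm8a1 (r = 0.995, and 0.933 without that library), followed by Hspa5, the chaperone BiP of the endoplasmic reticulum (r = 0.994 and 0.937). For Snhg1 it was Sat1 (r = 0.978 and 0.912), and for Mir17hg it was Nsmce4a (r = 0.983 and 0.936). For Mir155hg it was Zfp800 (r = 0.995 in both), for Neat1 it was Txndc5 (r = 0.983 and 0.892) and for Flicr it was Dclre1a (r = 0.988 and 0.973). The Spearman rank correlations of these pairs ran from 0.619 (Gas5 with Timm8a1) to 1 (Malat1 with Stk39). A search of 8915 genes over 8 libraries can find a high r without any link between the genes. The values without vehicle replicate 4 use libraries that picked the genes, so they are no check.

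Of 14 other long noncoding RNAs tested, Malat1, Neat1 and Flicr among them, 9 were above 0 and 5 below, and 0 passed the test, with a median log2 fold change of 0.089, or 0.099 without vehicle replicate 4. Airn, the antisense RNA of the imprinted Igf2r locus, averaged 4.33 ± 0.620 CPM under dimethyl succinate and 2.95 ± 0.899 CPM under vehicle. Kcnq1ot1, the antisense RNA of another imprinted locus, averaged 22.3 ± 2.41 CPM under dimethyl succinate and 18.9 ± 1.17 CPM under vehicle. Trp53cor1, a p53-induced RNA next to Cdkn1a, averaged 1.52 ± 0.473 CPM under dimethyl succinate and 0.863 ± 0.366 CPM under vehicle, and Cdkn1a averaged 528 ± 25.4 CPM under dimethyl succinate and 479 ± 42.1 CPM under vehicle. Cdkn1a is from the list of miR-17-92 targets. Ftx went the other way, averaging 11.7 ± 0.295 CPM under dimethyl succinate and 13.4 ± 1.21 CPM under vehicle. Its log2 fold change was -0.20 ± 0.10, and -0.26 without vehicle replicate 4. Airn, Kcnq1ot1, Trp53cor1, Ftx and Cdkn1a each had an adjusted p of 0.802 (edgeR's quasi-likelihood test, Benjamini-Hochberg).

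Proteins of paraspeckles were read beside Neat1. Of 12 tested, 5 were above 0 and 7 below, 0 passed the test, and the median log2 fold change was -0.082. When vehicle replicate 4 was left out, 3 were above 0 and the median was -0.057. That library was the highest of the 8 for 6 of these genes and the lowest for 5, and its part in the result was not tested. Hnrnph3, an RNA-binding protein, had 35.7, 38.3, 38.4 and 36.2 CPM under dimethyl succinate, and 41.2, 44.1, 41.7 and 44.7 CPM under vehicle, so the groups did not overlap. Tardbp, which encodes the RNA-binding protein TDP-43, averaged 464 ± 22.2 CPM under dimethyl succinate and 522 ± 48.9 CPM under vehicle. Its groups did not overlap either, nor did those of Hnrnpk, with a log2 fold change of -0.13 ± 0.065. Lower values without overlap were thus seen for 3 of the 12, against 2.32% of all genes tested. Smarca4 went the other way, with a log2 fold change of 0.13 ± 0.062, and its groups overlapped. These 4 genes were named for having the smallest p of their list.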

How the data were processed

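The authors deposited 1 table with raw counts per gene and library and FPKM values, per the file headers. It also held group means, used only as the authors' normalised signal, and the authors' log2 fold change with its p-value and adjusted p-value, per the file headers. The gene lengths, types and positions were deposited beside them. The submitters' processing notes name HISAT2 2.0.5; the counting tool, strand setting and build are not given in the sources used here. Start or end equalled GENCODE M21 (GRCm38) for 99.17% of 54409 matched genes.

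From the counts, edgeR 4.0.16 in R 4.3.3 fitted 4 against 4 libraries (filterByExpr, TMM scaling, robust quasi-likelihood F test, two-sided, Benjamini-Hochberg at 0.05). SEs came from the F statistic, and CPM used TMM-scaled library sizes. DESeq2 1.42.0 and limma 3.58.1 were alternatives. The members and lists were chosen with earlier results of these data known. Genes were named by rule: all members, their neighbours, and up to 4 per list with the smallest p. The test was tried on simulated counts. Replicates of a group differed beyond counting noise (lowest chi-square per gene 2.11). The total counts set the precision at low levels. Some genes within the rule are not reported here.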

Additional observations from a re-analysis of the deposited data

Results flagged for a closer look

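Of 58 groups of 4 libraries examined, 10 held a library far from the other 3. Chance alone flags about 1 in 20 independent groups. The groups here share libraries and genes, so the count is not read as an excess over chance. For 7 of the 10 the library was vehicle replicate 4. Gas5 stood at 401.6 CPM in it, against 285 to 295 in the other vehicle libraries, and the ratio of Gas5 to Snhg1 counts was 244.5%, against 201% to 207%. Foxp3 was at 37.1 CPM there, against 70.6 to 77.1, and Mir17hg was 25.8% of Myc, against 12.7% to 14.5%. The summed miR-155 targets were at 2067 CPM, against 2174 to 2190, and the summed miR-17-92 targets at 1872 CPM, against 1714 to 1738. Mitochondrial transcripts made up 0.252% of its counts, against 1.27% to 1.48%.

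Under dimethyl succinate, the summed microRNA hosts were at 203 CPM in replicate 1, against 236 to 237 in the others. Flicr was 4.59% of Foxp3 in replicate 2, against 3.29% to 3.51%, and Myc was at 362.5 CPM in replicate 3, against 379 to 382. What sets these libraries apart was not tested.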

How the results depend on the processing

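The count of genes past the adjusted threshold was 0 with all libraries, 6 with no low-count filter, 1 with the replicate block, and 0 to 28 when single libraries were left out, with 28 only without vehicle replicate 4. The labels do not say whether numbers in the titles pair the libraries. The deviations of same-numbered libraries correlated at -0.014, 0.0112, 0.0557 and 0.13, which cannot exclude a pairing. With the replicate block, 987 genes had an unadjusted p below 0.05 (edgeR's quasi-likelihood test), against 805 without it. DESeq2 and limma-voom called 0 genes, with 867 and 834 at an unadjusted p below 0.05.

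Leaving out single libraries moved the log2 fold change of Malat1 between 0.011 and 0.28, of Neat1 between -0.23 and -0.038, of Gas5 between -0.23 and -0.051, of Snhg1 between -0.15 and -0.073 and of Mir17hg between -0.33 and -0.12. Mir155hg ranged from -0.049 to 0.080 and Flicr from -0.10 (without vehicle replicate 4) to 0.45 (without vehicle replicate 1), so neither had a settled sign. The ratio of group means put Gm26772 at a log2 fold change of 2.84, and at 2.67 to 2.995 without single libraries. On log2(FPKM + 1) it was 0.27 and on log2(FPKM + 0.1) it was 1.36, since pseudocounts of this size shrink the difference of a gene this low. Gm26772 rests on 62 counts in all, so its size is known only broadly. Limma-voom gave no value for it, as the gene was filtered out. The lists' values without vehicle replicate 4 were chosen after seeing the data.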
